A study of Mus musculus with 6 samples.

Results

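Reads of small nuclear RNA (snRNA) were examined in 6 small RNA sequencing libraries of mouse serum, 2 for each of 3 library preparation kits. The members were all listed sequences whose only RNA class was snRNA, each counted under the single gene named beside it. They comprised 198 genes among 1919 annotated features of all classes, with 938 to 8983 reads per library. Of these genes, 197 are among the 1385 genes that the GENCODE M21 annotation of the mouse genome (GRCm38) types as snRNA. All libraries were made from serum of healthy 129/SVj mice of both sexes, aged 2 to 9 months, without any genetic change or tumor. The groups differed in the kit: NEBNext Multiplex Small RNA (New England Biolabs), TruSeq small RNA v2 (Illumina) or TailorMix miRNA v2 (Seqmatic). Serum came from individual mice, but the sources used here do not state which mouse gave which library, so the spread between the 2 libraries of a kit may be technical. Libraries were size-selected between 125 and 153 bp, adaptors included, so that only short RNA or fragments of the snRNAs could be sequenced. How many cells released an RNA and how much each cell released cannot be told apart in serum.

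snRNAs are short, stable, noncoding RNAs that work in the nucleus as the core of ribonucleoprotein particles. U1, U2, U4, U5 and U6 build the major spliceosome, which removes most introns: U1 pairs with the 5′ splice site, U2 with the branch site, and U4, U5 and U6 enter together before U6 helps to form the catalytic center. U11, U12, U4atac and U6atac take the corresponding places in the minor spliceosome, which removes a rare class of introns and shares U5 with the major one. U7 is not a splicing RNA and guides the processing of histone mRNA 3′ ends. Mammalian genomes hold many copies and pseudogenes of these RNAs, so a short fragment often matches several genes perfectly.

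The genes were grouped into families by their sequence. U1 took 73 of the listed genes, U6 56, U2 30, U4 11, U5 10, and U7, U11, U12 and U6atac 4 each, while U4atac had 1. One gene, with a single read, could not be assigned. No 7SK gene was listed, and the annotation types Rn7sk as misc_RNA, outside the snRNA class. Of the genes, 45 had reads in all 6 libraries and 85 in a single library.

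U1 and U2, the most abundant families, are given by their named genes, with copies that recur in the results. Sequences are from GENCODE M21, written as DNA from 5′ to 3′. Rnu1a1 encodes U1a (chr11:87422867-87423030, + strand), and its capitals mark the letters ACTTACC, part of the end that pairs with the 5′ splice site. Rnu1b1 encodes U1b (chr3:96359953-96360117, - strand), and its capitals mark the bases that differ from Rnu1a1, 7 edits in all. Gm26361 (chr3:95796699-95796884, - strand) is a diverged U1 copy with 66 edits to its nearest named gene, Rnu1b6, and its capitals mark the longest run shared with that gene, 25 nt at positions 37 to 61 of both.
Rnu1a1: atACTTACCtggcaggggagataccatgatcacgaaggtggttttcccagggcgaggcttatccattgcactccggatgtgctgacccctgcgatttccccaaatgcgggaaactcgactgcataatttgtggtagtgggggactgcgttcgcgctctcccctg
Rnu1b1: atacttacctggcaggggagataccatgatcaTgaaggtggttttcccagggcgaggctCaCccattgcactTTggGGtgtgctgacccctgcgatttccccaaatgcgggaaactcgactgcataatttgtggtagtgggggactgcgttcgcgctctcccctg
Gm26361: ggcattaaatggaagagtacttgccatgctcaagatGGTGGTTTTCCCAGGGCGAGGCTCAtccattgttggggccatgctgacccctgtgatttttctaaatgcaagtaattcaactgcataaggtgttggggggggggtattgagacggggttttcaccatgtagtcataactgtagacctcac

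The U2 gene Rnu2-10 (chr11:101658238-101658428, + strand) has the letters GTAGTA, which pair with the branch site, in capitals. Gm26316 (chr11:101604850-101605040, + strand) differs from it by C170T, with positions counted from 1 at the 5′ end and the base of Rnu2-10 first. That base is 22 nt from the 3′ end, counted with the last base as 1, and is in capitals.
Rnu2-10: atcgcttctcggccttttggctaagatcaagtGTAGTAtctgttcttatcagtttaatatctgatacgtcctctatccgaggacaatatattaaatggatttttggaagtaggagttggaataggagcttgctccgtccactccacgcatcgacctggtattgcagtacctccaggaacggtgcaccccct
Gm26316: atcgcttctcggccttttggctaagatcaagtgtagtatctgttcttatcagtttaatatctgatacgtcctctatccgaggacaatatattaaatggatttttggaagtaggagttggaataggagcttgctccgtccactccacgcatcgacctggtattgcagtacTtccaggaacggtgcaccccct

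Rnu7 (chr6:124741225-124741286, - strand), the U7 gene, is 62 nt long, and the capitals mark TTTGTCT, part of its Sm-type binding site. Rnu12 (chr15:83149644-83149794, + strand) is the named gene of U12, which pairs with the branch site of minor introns, and is shown whole without capitals. U7 is given as the only tested family whose level was lowest in TailorMix, and U12 as the minor spliceosome family with most reads there.
Rnu7: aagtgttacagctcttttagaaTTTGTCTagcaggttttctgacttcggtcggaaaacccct
Rnu12: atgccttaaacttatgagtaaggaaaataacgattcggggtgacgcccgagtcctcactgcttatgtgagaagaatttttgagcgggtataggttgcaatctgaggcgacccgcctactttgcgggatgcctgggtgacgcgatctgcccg

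The letters shown in capitals were searched on the sense strand of every listed gene. ACTTACC was present in 40 of 73 U1 genes (54.8%), which held 86.0% of U1 reads, and in 0 of the other 124 genes. GTAGTA was found in 26 of 30 U2 genes (86.7%), holding 99.0% of U2 reads, and in 3 of the other 167. TTTGTCT was present in all 4 U7 genes and in 1 of the other 193. These matches are a description of the genes, since the lists give no read positions within a gene.

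snRNA made up less than 0.1% of annotated reads in every library. NEBNext replicates 1 and 2 had a share of 0.0342% and 0.0482%, TruSeq 0.00827% and 0.00996%, and TailorMix 0.0916% and 0.0898%. The 3 kits did not overlap, with TailorMix highest and TruSeq lowest. The widest 95% Wilson interval relative to its value, 0.00934% to 0.01062%, belonged to TruSeq replicate 2. The mean share was 0.0907% ± 0.0013 (SD, n = 2) for TailorMix, 0.0412% ± 0.0099 for NEBNext and 0.00912% ± 0.00120 for TruSeq, so that TailorMix was 9.95-fold above TruSeq and 2.20-fold above NEBNext. The two-sided exact permutation test gave p = 0.0667, the smallest p that 15 groupings allow.

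**Figure D1:**
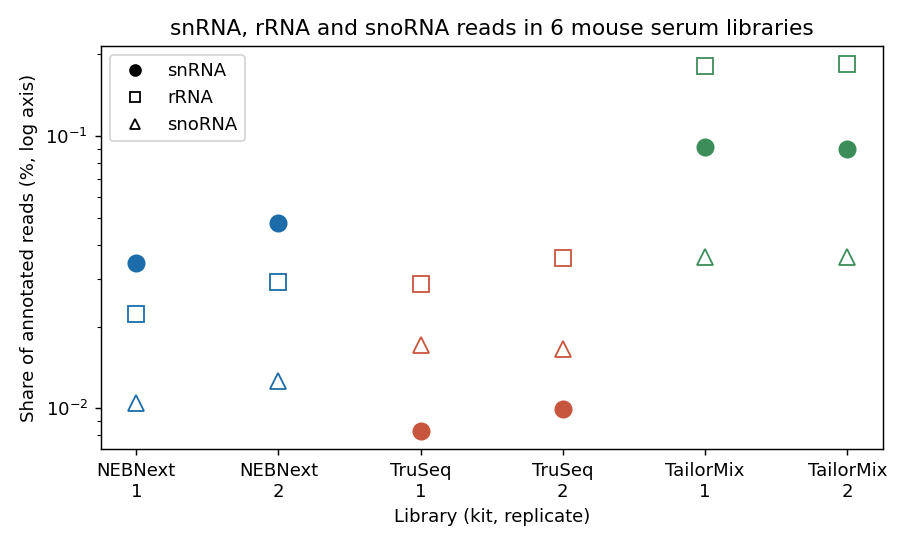
Share of annotated reads (%, log axis) that were snRNA (filled circles), rRNA (squares) and snoRNA (triangles) in each library, colored by kit, without error bars. snRNA lies above rRNA in the NEBNext libraries and below both other classes in the TruSeq libraries.

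The order of NEBNext and TailorMix depended on the denominator, and the cause of this was not tested. Between 95.5% and 98.9% of annotated reads were tRNA. The miRNA share was 0.856% and 0.972% in NEBNext and 3.76% and 3.71% in TailorMix. Of the reads other than tRNA, snRNA accounted for 3.22% and 3.79% in NEBNext, 2.02% and 2.01% in TailorMix, and 0.261% and 0.316% in TruSeq. Relative to miRNA reads, the values were 3.99% and 4.95% in NEBNext, 2.44% and 2.42% in TailorMix, and 0.273% and 0.333% in TruSeq. On both scales the kits again did not overlap (exact permutation p = 0.0667 each), but NEBNext was highest and the ratio of TailorMix to NEBNext was 0.575 and 0.542. TruSeq was the lowest kit with every denominator used.

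Other structural RNAs, rRNA and snoRNA, shared the high level of snRNA in TailorMix but not its order in the other kits. As a share of annotated reads, rRNA was 0.182% and 0.184% and snoRNA 0.0362% and 0.0361% in TailorMix, the highest kit. The miRNA and piRNA shares were highest there too. In NEBNext and TruSeq, snoRNA was 0.0105% and 0.0126% against 0.0171% and 0.0165%, and rRNA 0.0223% and 0.0291% against 0.0287% and 0.0357%. Only piRNA had the order of snRNA in all 3 kits. For each snoRNA read, TruSeq had 0.484 and 0.603 snRNA reads, NEBNext 3.27 and 3.82, and TailorMix 2.53 and 2.48. For each rRNA read, TruSeq had 0.288 and 0.279, TailorMix 0.503 and 0.488, and NEBNext 1.54 and 1.66. Both ratios separated the 3 kits (exact permutation p = 0.0667, n = 2 libraries per kit), and neither uses the tRNA or miRNA counts.

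U1 and U2 together held 89.1% to 96.7% of snRNA reads. Over all libraries U1 had 22195 reads (77.8%), U2 5093 (17.9%), U11 333, U12 252, U7 222, U5 201, U4 149, U6 71, U4atac 10 and U6atac 7. U1 thus exceeded U6 by 48.6-fold to 2142-fold within a library, although both belong to the same spliceosome. The upper value rests on 3 U6 reads in NEBNext replicate 2, and replicate 1 had 593-fold. The order of U1 and U2 also held per length: in RPM (reads for each 1000000 annotated reads) per 100 nt of the named gene, the means were 198 for U1 and 38.3 for U2 in NEBNext, 36.7 and 11.6 in TruSeq, and 432 and 80.4 in TailorMix. On this scale U7 (7.10) was the third family in NEBNext, U12 (8.90) in TailorMix, and in TruSeq U7 (2.39) and U5 (2.10) followed.

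**Figure D2:**
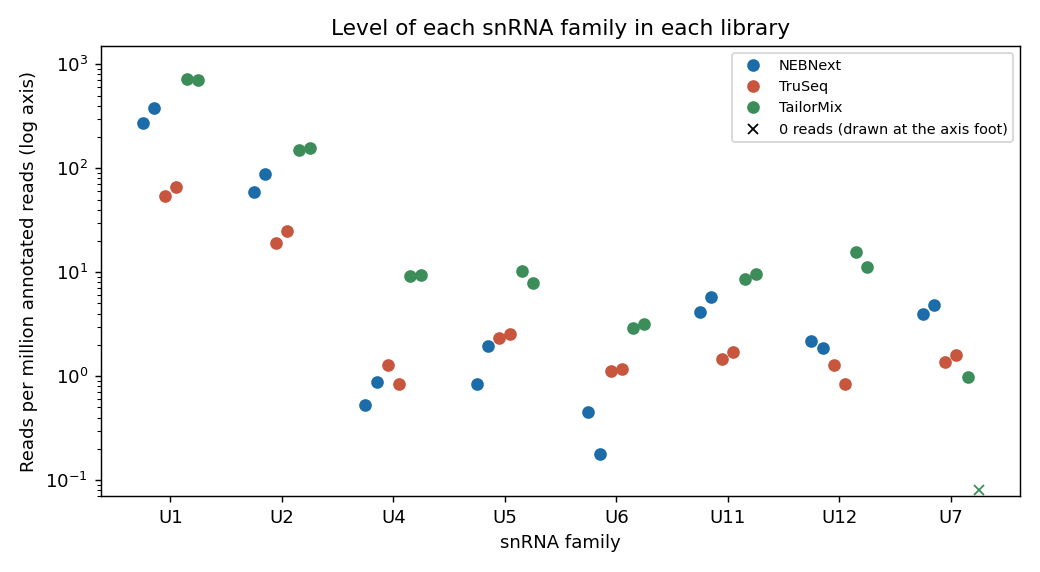
RPM, reads for each 1000000 annotated reads (log axis), of 8 snRNA families in each library (dots, NEBNext, TruSeq and TailorMix from left to right, replicate 1 before 2), with 1 library at 0 reads as a cross. TailorMix is highest for every family but U7, where both NEBNext libraries are highest.

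U1 was read 7120 and 6427 times in NEBNext, 632 and 620 times in TruSeq and 3686 and 3710 times in TailorMix. These counts correspond to 271 and 378, 54.4 and 65.8, and 716 and 699.9 RPM, and the 3 kits did not overlap. U2 had 1544 and 1487, 224 and 234, and 777 and 827 reads, which are 58.8 and 87.6, 19.3 and 24.8, and 151 and 156 RPM. The U2 groups also lay apart and in the same order as those of U1.

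U4 had 14 and 15 reads in NEBNext, 15 and 8 in TruSeq, and 47 and 50 in TailorMix, or 0.533 and 0.883, 1.29 and 0.850, and 9.14 and 9.43 RPM. U5, the RNA that holds both exons during splicing, had 22 and 33, 27 and 24, and 53 and 42 reads (0.838 and 1.94, 2.32 and 2.55, and 10.3 and 7.92 RPM). For both, TailorMix lay above the other kits, and for U4 NEBNext and TruSeq overlapped. U6 had 12 and 3 reads in NEBNext, 13 and 11 in TruSeq and 15 and 17 in TailorMix, spread over 56 genes with 1.27 reads per gene.

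In the minor spliceosome, U11, which recognizes the 5′ splice site of minor introns, had 108 and 97 reads in NEBNext, 17 and 16 in TruSeq and 44 and 51 in TailorMix. U12 had 57 and 32, 15 and 8, and 80 and 60 reads in the same order. U12 reached 15.5 and 11.3 RPM in TailorMix against 2.17 and 1.88 in NEBNext, whereas U11 reached 8.55 and 9.62 against 4.11 and 5.71. U11 therefore exceeded U12 in both NEBNext libraries (1.89 and 3.03 reads of U11 per read of U12) and fell below it in both TailorMix libraries (0.550 and 0.850), with 1.13 and 2.00 in TruSeq. The exact permutation test of this ratio gave p = 0.133. U4atac (0 to 4 reads per library) and U6atac (0 to 3) were too rare to compare, since a count of 0 allows up to 3 reads.

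U7 was the family with a pattern of its own. It had 103 and 83 reads in NEBNext, 16 and 15 in TruSeq, and 5 and 0 in TailorMix. Both TailorMix libraries lay below all others, although TailorMix had the highest level of every other tested family. The count of 0 in TailorMix replicate 2 allows up to 5.66e-05% of annotated reads. Pooled over libraries, the ratio of TailorMix to NEBNext was 0.111 (exact 95% counting interval 0.0357 to 0.264) and that of TailorMix to TruSeq 0.325 (0.0986 to 0.843).

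Counts of 8 families passed the filter on low counts, U4atac and U6atac not among them, and were tested between kits with edgeR over 562 features, of which 50% differed between TruSeq and NEBNext, 56.4% between TailorMix and NEBNext and 62.3% between TailorMix and TruSeq. TruSeq was lower than NEBNext in U1 (log2 fold change -2.43 ± 0.20 SE, edgeR adjusted p = 0.000136), U2 (-1.73 ± 0.25, adjusted p = 0.00196) and U11 (-1.63 ± 0.32, adjusted p = 0.00776), and higher in U6 (1.75 ± 0.49, adjusted p = 0.0279). That is 4 of 8 families, a share equal to that of all features. U4 (0.62), U5 (0.82), U12 (-0.91) and U7 (-1.56) did not pass. The U6 call rests on 71 reads in all and was lost with DESeq2 (adjusted p = 0.0838 with the same library sizes). With TMM 0 families were higher and 3 lower, and with reads other than tRNA as library size 0 were higher and 5 lower. Without TruSeq replicate 1, 2 families were called instead of 4.

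Between TailorMix and NEBNext all 8 families passed, 7 higher in TailorMix and U7 lower. Among the families that were higher, the largest differences were in U4 (3.72 ± 0.40, edgeR adjusted p = 0.000539), U6 (3.16 ± 0.49, adjusted p = 0.00216), U5 (2.72 ± 0.47, adjusted p = 0.00345) and U12 (2.72 ± 0.36, adjusted p = 0.00116). U1 (1.12 ± 0.19, adjusted p = 0.00297), U2 (1.07 ± 0.24, adjusted p = 0.0106) and U11 (0.89 ± 0.31, adjusted p = 0.0497) differed less, and U7 had -3.17 ± 0.86 (adjusted p = 0.0218). The median of all 562 features was itself 1.37 in this contrast, so relative to it U1 (-0.25), U2 (-0.31) and U11 (-0.49) lay below the median feature and U4 2.34, U6 1.79, U5 1.35 and U12 1.35 above it. The directions of U1, U2 and U11 were accordingly not stable: with TMM 4 families were higher and 1 lower, and with reads other than tRNA as library size 1 (U4) was higher and 4 lower, U1 (-0.81), U2 (-0.86) and U11 (-1.05) among them. The U11 call was also lost with the replicate number as a block (edgeR adjusted p = 0.0685), and that of U7 in a fit of only the 4 libraries of this contrast (adjusted p = 0.0509).

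Between TailorMix and TruSeq 7 families were higher in TailorMix, from U6 (1.41 ± 0.46, edgeR adjusted p = 0.0372) to U12 (3.63 ± 0.38, adjusted p = 0.000437). U1 (3.56 ± 0.21), U4 (3.09 ± 0.40), U2 (2.80 ± 0.26), U11 (2.52 ± 0.33) and U5 (1.90 ± 0.46) lay between them. U7 did not pass (-1.60 ± 0.92, adjusted p = 0.175), but was called lower with TMM (-2.78, adjusted p = 0.0242), where 5 families were higher and 1 lower. Relative to the median of all features (1.68), U12 lay at 1.95 and U1 at 1.88, while U6 lay at -0.27. The U6 call was lost with the block (adjusted p = 0.0643), and U5 and U6 lost theirs without either TruSeq library, the 2 libraries with fewest snRNA reads. The 3 contrasts share libraries and are not independent.

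**Figure D3:**
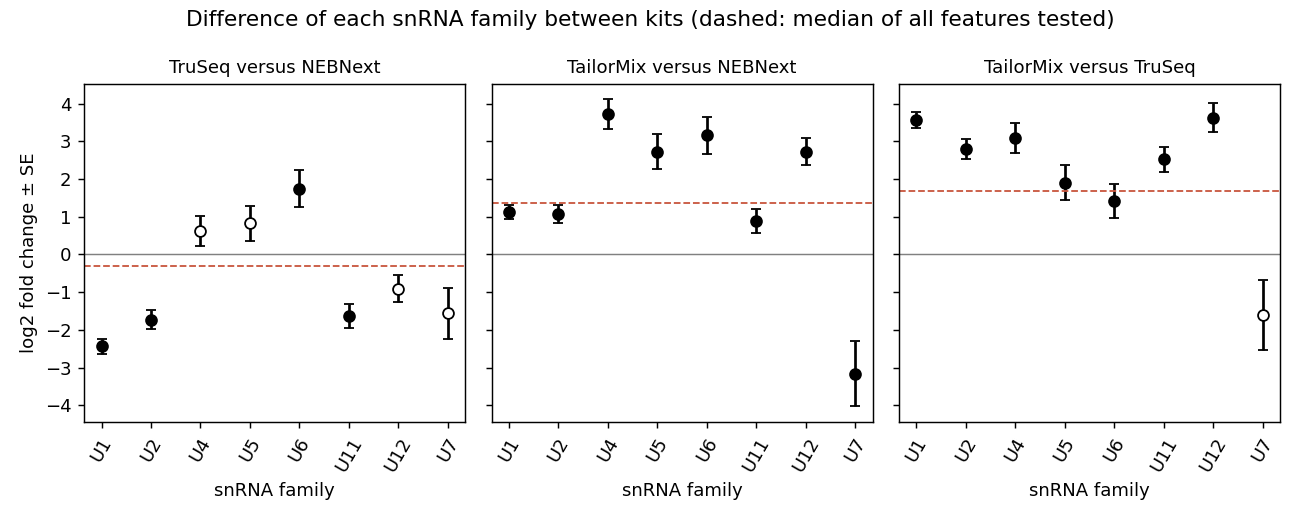
log2 fold change of 8 snRNA families in the 3 contrasts between kits, with SE as bars, filled where the edgeR adjusted p was under 0.05, and the median of all 562 features as a dashed line (-0.32, 1.37 and 1.68). U7 lies below the line in all contrasts, and U1 and U2 are close to it only for TailorMix versus NEBNext.

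Within snRNA, the composition of TruSeq libraries stood apart from those of the other kits. U1 made up 65.8% and 66.1% of snRNA reads in TruSeq, against 79.3% and 78.6% in NEBNext and 78.2% and 77.9% in TailorMix. U2 made up 23.3% and 24.9% in TruSeq, 17.2% and 18.2% in NEBNext and 16.5% and 17.4% in TailorMix. Thus there were 2.82 and 2.65 U1 reads per U2 read in TruSeq, 4.61 and 4.32 in NEBNext and 4.74 and 4.49 in TailorMix. TruSeq lay outside the range of the other kits in both families, whereas NEBNext and TailorMix overlapped in U2.

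U5 was 2.81% and 2.56% of snRNA reads in TruSeq, 1.12% and 0.882% in TailorMix and 0.245% and 0.403% in NEBNext. U6 had 1.35% and 1.17%, 0.318% and 0.357%, and 0.134% and 0.0367% in the same order of kits. U7 had 1.67% and 1.60% in TruSeq, 1.15% and 1.01% in NEBNext, and 0.106% and 0% in TailorMix. U4 took 1.56% and 0.853% in TruSeq and 0.998% and 1.05% in TailorMix, both kits above the 0.156% and 0.183% of NEBNext. Of the families, 8 reached 1% in a kit and were compared. The exact permutation p was 0.0667 for U1, U5, U6, U7 and U11, 0.133 for U2 and 0.200 for U4 and U12, and after adjustment over the 8 families the smallest value was 0.107. No family could pass 0.05 with 2 libraries per kit.

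Counts per listed gene were less reproducible than counts per family. Among U1 genes with a mean of at least 10 reads, 17 of 37 in NEBNext, 6 of 13 in TruSeq and 13 of 32 in TailorMix differed by over 2-fold between the 2 libraries of a kit, as a share of snRNA reads. Of families with that many reads, 0 of 7, 0 of 8 and 0 of 7 did so, and the median difference of families was 1.13-fold, 1.08-fold and 1.12-fold. Gm22220 had 454 and 6 reads in the TailorMix libraries, Gm23330 had 11 and 573 in NEBNext, and Gm23472 had 1 and 108 in TruSeq. In each of these the reads were mostly 1 fragment, of 447, 565 and 108 reads. At ranks 1 to 5 of the most abundant fragments, the gene was the same in both libraries of a kit at 1 of 5 ranks in NEBNext, 1 of 5 in TruSeq and 0 of 5 in TailorMix. A gene at another rank did not count as the same, such as Gm25679, at rank 1 in NEBNext replicate 1 and rank 2 in replicate 2. The family was the same at all 5 ranks in every kit. In NEBNext and TailorMix all of these fragments were of U1, which held most snRNA reads, so a match of family there could hardly fail.

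**Figure D4:**
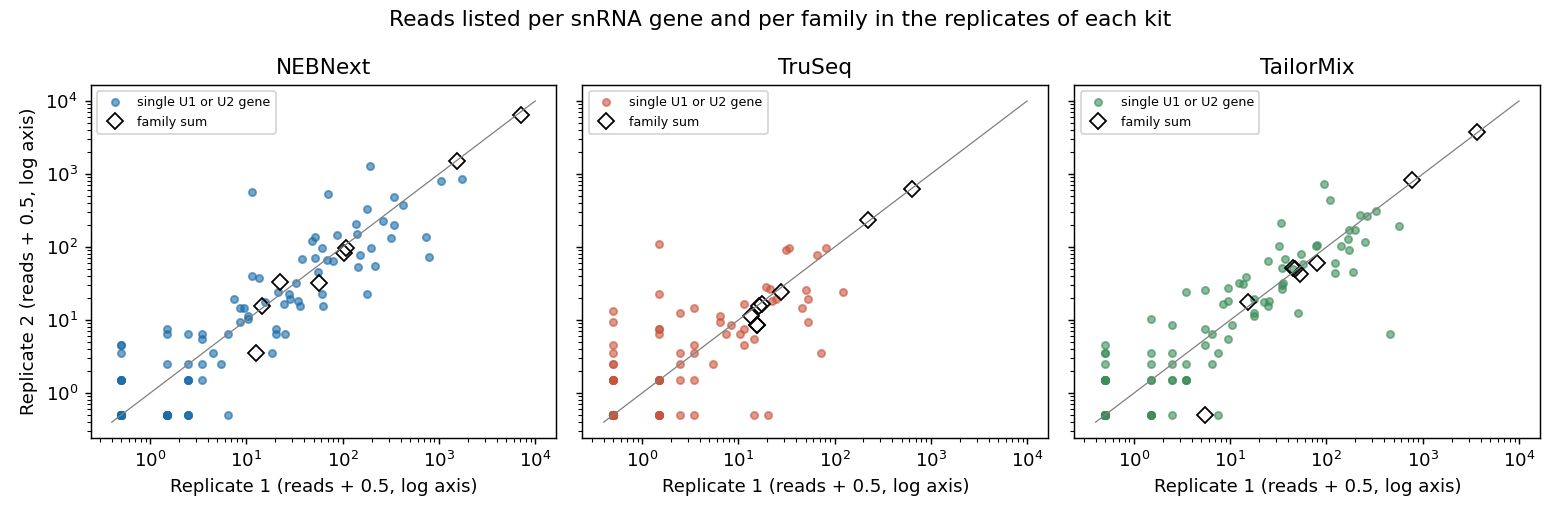
Reads listed in replicate 1 and replicate 2 of each kit (counts + 0.5, log axes) for single U1 and U2 genes (dots) and for family sums (diamonds), with the line of equal counts. Family sums follow the line except U6 in NEBNext (12 and 3) and U7 in TailorMix (5 and 0), whereas single genes scatter widely.

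Many of these genes share long stretches of sequence. Gm23971 and Gm23472, which led the TruSeq libraries with 1 fragment each, of 94 and 108 reads, are U2 copies with 1 edit between them and a shared run of 108 nt. Gm25679 and Gm22042, at the first rank in NEBNext with 1328 and 1115 reads, share 87 nt. Gm22220 and Gm22317, which held that rank in TailorMix with 447 and 367 reads, share 72 nt. Of 197 genes, 31 had no window of 20 nt that was absent from all other listed genes, and they carried 44.3% of snRNA reads.

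The same was seen for U4. In TailorMix, the most abundant U4 fragment of replicate 1 was listed under Gm22985 (25 reads) and that of replicate 2 under Gm22249 (23 reads). Each gene had 0 reads in the other library, and the sequences of these fragments were not compared. Both are diverged copies of the U4 gene Gm24407 with 42 and 43 edits. Their first 25 nt are identical and in capitals, and Gm24407 begins with the same 25 nt. Gm22985 is at chr9:88526679-88526794 (- strand) and Gm22249 at chr5:38546458-38546593 (+ strand).
Gm22985: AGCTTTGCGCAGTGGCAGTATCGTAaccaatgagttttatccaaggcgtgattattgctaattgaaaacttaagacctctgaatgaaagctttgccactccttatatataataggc
Gm22249: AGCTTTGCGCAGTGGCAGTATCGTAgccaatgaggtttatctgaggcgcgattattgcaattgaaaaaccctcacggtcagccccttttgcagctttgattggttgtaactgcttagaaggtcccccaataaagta

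Counts for single genes describe where a fragment was listed, and differed between the libraries of a kit for several of the genes described here, whose counts are given for each library. Whether the same fragment was listed under different genes in the libraries of a kit was not tested. The fit with every feature as listed tested 930 features, of which 29% were called between TruSeq and NEBNext, 31.2% between TailorMix and NEBNext and 40% between TailorMix and TruSeq. Of 198 snRNA genes 69 passed the filter on low counts, and 20 (18 of them lower in TruSeq), 11 (all higher in TailorMix) and 37 (all higher in TailorMix) of them were called. The median log2 fold change of the 69 genes was -1.87, 1.12 and 3.50, against -0.57, 0.67 and 1.33 over all 930 features. At least 1% of a kit's snRNA reads was listed under each of 35 genes, and the 25 with the highest mean share were 18 of U1, 6 of U2 and Rnu11, with 190 to 3172 reads each in all.

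Gm26316, the U2 copy with C170T, had its highest share of U2 reads in both TailorMix libraries, and was singled out after its values were seen. It had 28 and 19 reads in NEBNext, 10 and 6 in TruSeq, and 199 and 169 in TailorMix. Of U2 reads, these were 1.81% and 1.28%, 4.46% and 2.56%, and 25.6% and 20.4%, a measure that no library size enters. TailorMix stood well above both other kits, and its reads were of 41 and 39 distinct fragments, the largest of 43 and 52 reads. The log2 fold change was 5.001 ± 0.362 against NEBNext (edgeR adjusted p = 0.00289) and 5.53 ± 0.38 against TruSeq (adjusted p = 0.00258). Of its 172 windows of 20 nt, 13 were found in no other listed gene.

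Another U2 copy had its highest share of the family in NEBNext. Gm25202, on the X chromosome with 8 edits to Rnu2-10, took 22.0% and 32.5% of U2 reads in NEBNext, 10.7% and 8.12% in TruSeq and 10.3% and 12.7% in TailorMix. Both NEBNext libraries lay above all others. It was lower in TruSeq than in NEBNext (-3.34 ± 0.51, edgeR adjusted p = 0.0143) and had a log2 fold change of -0.23 ± 0.47 between TailorMix and NEBNext (adjusted p = 0.740).

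Among U1 copies, Gm26361 was listed with close counts in every pair of libraries, 423 and 379 in NEBNext, 81 and 98 in TruSeq and 170 and 172 in TailorMix. It held 5.94% and 5.90% of U1 reads in NEBNext, 12.8% and 15.8% in TruSeq and 4.61% and 4.64% in TailorMix. In TruSeq, 1 fragment in each library held 73 and 80 of these reads and was that library's most abundant U1 fragment. Of its 167 windows of 20 nt, 153 were found in no other listed gene. It was higher in TailorMix than in TruSeq (1.91 ± 0.36, edgeR adjusted p = 0.0181), a smaller difference than that of U1 as a whole, and the difference between these 2 was not tested.

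Like U1 as a whole (log2 fold change -2.43), the U1 copies Gm22513 and Gm24621 were at lower levels in TruSeq than in NEBNext. So were Gm25679 (-4.15 ± 0.51, edgeR adjusted p = 0.00773), Gm22042 (-4.96 ± 1.28, adjusted p = 0.0480) and Rnu1b6 (-3.40 ± 0.64, adjusted p = 0.0216). Gm22042 had 191 and 1276 reads in the NEBNext libraries. Gm22513, with 1 edit to Rnu1a1, had 1048 and 814 reads in NEBNext, 21 and 26 in TruSeq and 223 and 278 in TailorMix, a log2 fold change of -4.26 ± 0.38 between TruSeq and NEBNext (edgeR adjusted p = 0.00365). Gm24621, 140 nt long with 43 edits, had 263 and 224, 14 and 5, and 37 and 68 reads (-3.71 ± 0.60, adjusted p = 0.0155). Neither Gm22513 nor Gm24621 passed between TailorMix and NEBNext (0.12 and -0.21). Of their windows of 20 nt, 9 of 145 and 89 of 121 were found in no other listed gene. For Gm25679, Gm22042 and Rnu1b6 the numbers were 0 of 145, 17 of 146 and 0 of 147. No window of Gm25679 or Rnu1b6 thus told it from other listed genes, and their values describe only where fragments were listed. Genes within 5 edits of U1a held 47.6% to 71.7% of U1 reads and those within 5 edits of U1b 10.9% to 31.9%. Both extremes were the 2 NEBNext libraries for U1a, so the split could not be read between kits.

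The remaining genes of the 25 were the U1 copies Gm24305 (1413 reads in all), Gm25890 (1283), Gm24924 (1082), Gm26244 (1041), Gm23804 (348), Gm22614 (312), Gm26444 (207) and Gm23238 (190) and the U2 copies Gm25813 (767) and Gm24950 (383). All of them had a positive log2 fold change in TailorMix against TruSeq, of which 0.90 for Gm23238 was the smallest, and Gm24305, Gm25890, Gm23804, Gm22614 and Gm25813 passed the edgeR test over all genes (adjusted p from 0.0185 to 0.0416). Against NEBNext, Gm25890 and Gm23804 passed in TailorMix (adjusted p of 0.0499 and 0.0477), and none of them passed in TruSeq, where the adjusted p ran from 0.0919 to 0.687. The libraries of a kit differed widely for several of these genes. In TruSeq, Gm24950 had 1 and 22 reads and Gm23238 had 72 and 3. Gm25890, Gm23804 and Gm22614 had 0 windows of 20 nt that were found in no other listed gene, and Gm24305 and Gm25813 had 20 each.

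Of the smaller families, U11 was listed mostly under 1 gene. Rnu11 held 79.5% to 100% of U11 reads in each library. For U12, Gm24525, with 6 edits to Rnu12, had 39 and 24 reads in NEBNext, 2 and 7 in TruSeq and 44 and 47 in TailorMix, and Rnu12 had 15 and 8, 13 and 1, and 24 and 11, so that the leading gene differed between the TruSeq libraries. U7 reads were listed under Rnu7 in NEBNext (86 and 80 of 103 and 83) but mostly under Gm25150, 12 edits away, in TruSeq (13 and 8 of 16 and 15), where Rnu7 had 2 and 7. Gm25150 had 0 reads in both NEBNext libraries. For U5, Rnu5g held 18.2% and 36.4% of reads in NEBNext, 14.8% and 0% in TruSeq and 45.3% and 57.1% in TailorMix, whereas Gm25099 held 9.09% and 9.09%, 29.6% and 50%, and 5.66% and 2.38%.

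snRNA reads came from many distinct fragments, most seen once. NEBNext had 1084 and 1037 distinct fragments, TruSeq 262 and 256, and TailorMix 990 and 1026, and between 52.0% and 66.4% of them had a single read. The most abundant fragment held 14.8% and 13.6% of snRNA reads in NEBNext, 9.78% and 11.5% in TruSeq, and 9.49% and 7.71% in TailorMix. In all, 50% of the reads was reached with 13 and 16 fragments in NEBNext, 14 and 14 in TruSeq, and 34 and 41 in TailorMix, so TailorMix spread its snRNA reads over more fragments. At an equal depth of 938 snRNA reads, a comparison chosen after seeing the data, 289 and 296 fragments were expected in NEBNext, 258 and 256 in TruSeq, and 367 and 373 in TailorMix, again without overlap (exact permutation p = 0.0667).

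**Figure D5:**
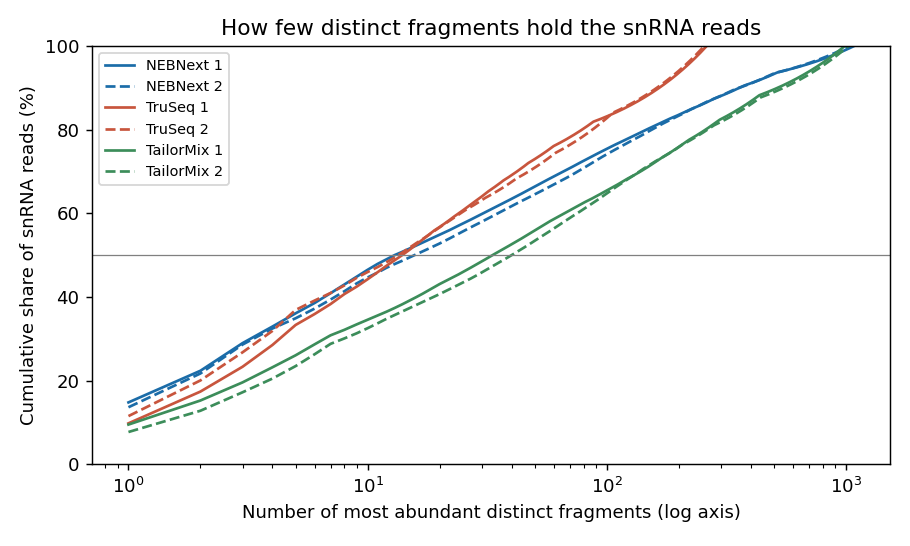
Cumulative share of snRNA reads (%) against the number of most abundant distinct fragments (log axis) in each library (solid, replicate 1; dashed, replicate 2), with a line at 50%. NEBNext and TruSeq reach 50% with 13 to 16 fragments and TailorMix with 34 and 41.

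Fragments of at least 1% of a library's snRNA reads numbered 13 and 12 in NEBNext, 19 and 16 in TruSeq and 11 and 12 in TailorMix. Of these, 11 and 10, 14 and 13, and 11 and 11 were listed under U1 genes, and 2 and 2, 4 and 3, and 0 and 1 under U2 genes. The leading U2 fragment of each library alone took 42.0% and 46.2% of U2 reads in TruSeq, against 12.2% and 10.3% in NEBNext and 5.53% and 6.29% in TailorMix. In both TruSeq libraries, and in no library of the other kits, the leading U2 fragment was the most abundant of all snRNA fragments.

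The features outside snRNA whose level was most like that of U1 over the 6 libraries were miRNAs. Among 303 features with at least 100 reads, MIMAT0000666 had the highest Pearson correlation of log2 share with U1 (0.997), and it was second for U2 (0.989) after the sum of tRNA-Met (0.994). For U7 the closest was the snoRNA Snora41 (0.952), and for U12 the 5S rRNA gene n-R5s108 was among the closest (0.994). These values describe 6 libraries in 3 groups that share their kit and depth, and carry no test.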

How the data were processed

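The authors deposited raw read counts. They give, for each of 6 libraries, the count of each miRNA and of each distinct sequence annotated as another RNA class, with its class and 1 gene. The authors trimmed adaptors with cutadapt 1.8.1, mapped reads to GRCm38 with Bowtie 1.1.2 without mismatches and annotated them by position. The counts were not normalized, the read sequences were not used here, and depth ranged from 5144833 to 26256012 annotated reads.

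snRNA rows were summed per gene and per family. Families were assigned by aligning each gene's GENCODE M21 (GRCm38) transcript to the named snRNA genes with BLAST+ 2.17.0 (word size 7, E value up to 1e-05). For U4, U4atac and U6atac, which have no named gene in that annotation, 1 lead gene each was named from its sequence. One gene, with 1 read, had no transcript typed as snRNA there and was left unassigned. Shares were tested with an exact permutation test (F ratio between kits, two-sided, 15 groupings), whose p is at least 0.0667. Counts were tested with edgeR 4.0.16 (R 4.3.3; glmQLFit, glmQLFTest) over the whole table, with snRNA summed by family and tRNA by amino acid, annotated reads as library size, all 6 libraries, at least 4 counts in at least 2 libraries and Benjamini-Hochberg adjustment over 562 features. The SE of a log2 fold change was taken from the F statistic. The step was also run on simulated counts with the same spread for every feature, which does not measure its error rate on these data. DESeq2 1.42.0, TMM, other library sizes, other filters, the replicate block and left-out libraries were alternatives. The text names every family and the 25 genes with the highest mean share among those with at least 1% of a kit's snRNA reads. Other genes named were chosen after their values were seen. Members, lists and tests were chosen with earlier results of these data known. A chi-square test of miRNA counts between the libraries of a kit gave 2.16, 15.0 and 1.59 per degree of freedom (NEBNext, TruSeq, TailorMix), and each library was counted as 1 sample. Intervals and floors cover counting error only, since the reads carry no molecular identifiers.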

Additional observations from a re-analysis of the deposited data

Results flagged for a closer look

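Reads listed under both piRNA and snRNA were not counted in either class. There were 16 in NEBNext replicate 1, from 1 sequence and above the 3 counts that a 0 allows, against 0 in NEBNext replicate 2, 1 and 2 in the TruSeq libraries and 0 in both TailorMix libraries. No gene is listed for them, and counting them as snRNA changed no direction of the snRNA share. Groups of 2 libraries were not tested for a library far from the others.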

How the results depend on the processing

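The ratios of mean snRNA share kept their direction under the alternatives, except that TailorMix over NEBNext became 0.575 with reads other than tRNA and 0.542 with miRNA reads as denominator. With single libraries left out they lay between 9.10 and 10.97 (TailorMix over TruSeq), 1.88 and 2.65 (TailorMix over NEBNext) and 3.75 and 5.28 (NEBNext over TruSeq). Replicate numbers were not shown to pair the libraries: the differences between replicates 1 and 2 over 131 features correlated by 0.37, -0.56 and -0.24 between kits. With the replicate block the ratios were 9.95, 2.20 and 4.52 and the smallest p that 6 groupings allow, 0.167, was reached, and 4, 7 and 6 families were called (TruSeq versus NEBNext, TailorMix versus NEBNext, TailorMix versus TruSeq) in place of 4, 8 and 7.

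Between TailorMix and NEBNext, 5 families were called with TMM, 5 with reads other than tRNA as library size and 2 with DESeq2's own size factors. U1, U2 and U11 turned to -0.17, -0.22 and -0.40 with TMM, -0.81, -0.86 and -1.05 with the second and -0.35, -0.40 and -0.58 with the third. Between TruSeq and NEBNext, U4 (-0.79) and U5 (-0.58) turned negative with reads other than tRNA. With single libraries left out, 2 to 5, 6 to 7 and 5 to 7 families were called. An arm left with 1 library was assumed to vary like the others. With every feature as listed, 20, 11 and 37 genes were called, a count of genes and not of families. For single families, 274 of the values under alternatives kept direction and side of the threshold, 40 lost and 11 gained a call, and 11 reversed. The cause of these changes was not tested.

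The U11 share of snRNA reads (TruSeq minus TailorMix) was -0.037 percentage points when only fragments with at least 4 counts were used, which is the only reversal among family shares under the alternatives run. With single libraries left out, the differences were 12.6 to 13.3 percentage points for U1, 6.38 to 8.01 for U2, 0.683 to 1.39 for U4, 2.23 to 2.49 for U5, 1.09 to 1.27 for U6, 0.666 to 0.803 for U11, 0.748 to 1.19 for U12 and 1.53 to 1.63 for U7. Distinct fragments depended on depth, with means of 485 (NEBNext) and 164 (TruSeq) after thinning to the smallest library, 274, 44.5 and 213 (TailorMix) with at least 4 counts, and 293 and 370 in NEBNext and TailorMix at equal snRNA reads. Depth limits the families other than U1 and U2, each of which had under 100 reads in at least 1 kit.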
